A study of Homo sapiens with 4 samples.

Results

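The mRNAs of 10 immediate early and stress-induced genes were examined in HCCLM3 cells, namely the AP-1 subunits JUN, JUNB, JUND, FOS, FOSL1 and FOSL2, the transcription factors EGR1 and ATF3, and IER2 and IER3. They were chosen by gene name as genes with short-lived mRNAs. The choice was made with earlier results of these data known. All 10 were found among the 13300 gene names listed, with 24 of the 34975 listed transcripts. HCCLM3 is a line of human hepatocellular carcinoma cells, and its RNA was precipitated either with an antibody against KIAA1429, a scaffold subunit of the m6A methyltransferase complex (KIAA1429 RIP, n = 2), or with normal IgG as the background (IgG RIP, n = 2). RNA immunoprecipitation sequencing (RIP-seq) was used by the study to find mRNAs that associate with KIAA1429, and no treatment separates the groups. The labels give replicate numbers but do not say whether replicates were separate cultures, so the p-values may measure only technical spread. No input library was analysed here, so a high FPKM in a precipitate can reflect an mRNA that is abundant in the cells or one that is well recovered, and these cannot be told apart.

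Immediate early genes are transcribed within minutes of a growth factor or stress signal, without new protein synthesis, and their mRNAs usually decay fast. AP-1 is a dimer of basic leucine zipper proteins in which JUN family members pair with each other or with FOS family members and bind promoters and enhancers of genes for growth, invasion and stress responses. JUN has long been studied as a factor in liver regeneration and liver tumour formation. AU-rich elements in the 3′ UTR, often built on the pentamer ATTTA, attract destabilizing proteins such as ZFP36 and the stabilizing protein HuR, and GGAC is a core form of the m6A consensus.

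Many members have few exons, and their transcripts were shorter in the median than those of all genes, though that of FOSL2 has 6713 bases. In the GENCODE annotation of GRCh37, the longest listed coding transcript was intronless in 5 of the 10 members (JUN, JUNB, JUND, IER2 and IER3), against 2.90% of the 11485 genes with such a transcript. IER3 is counted through an unspliced form that keeps its intron. Over the members these transcripts had a median length of 2022 bases, against 3367 bases over all genes, and their median GC content was 57.3%, against 48.3%. ATTTA was searched on the mRNA strand and occurred in the 3′ UTR of 9 of 10 members, against 73.6% of all genes, with a median of 2.09 per kb of 3′ UTR against 1.71. IER3 (6.64 per kb, a density reached by 3.58% of genes) and FOS (6.20 per kb, reached by 4.61%) held it most densely, and IER2 had 0 copies. GGAC occurred in all 10 members and in 99.5% of all genes. Its density was 8.74 per kb in JUNB and 8.15 per kb in IER3, reached by 3.17% and 4.51% of genes, and the median was 4.22 per kb in the members against 3.61 per kb over all genes. The IER3 densities are those of its unspliced form. Its spliced form had 8.14 ATTTA per kb of 3′ UTR and 8.89 GGAC per kb. All these motifs are letter matches on transcripts of unequal length, and no m6A or decay measurement was analysed here.

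The following 3′ UTR stretches show AU-rich contexts in FOS, FOSL2, IER3 and JUN. They are read 5′ to 3′ from the mRNA strand of GRCh37, with ATTTA in capitals. A 30-base window with 2 copies, as in FOS, FOSL2 and IER3, was found in 26.2% of all genes. They lie at chr14:75748761-75748790 on the plus strand (FOS), chr2:28639216-28639245 on the plus strand (FOSL2), chr6:30711424-30711453 on the minus strand (IER3) and chr1:59247007-59247036 on the minus strand (JUN).
FOS: tgtgtttttaATTTATTTAttaagatggat
FOSL2: attgacATTTAttttattATTTAttttaaa
IER3: aattaatATTTAtatgtATTTAtgtacgtc
JUN: tccagaaaggatATTTAagaaaatacaata
The FOS copies share a base, and those of FOSL2 and IER3 stand apart. The next stretches show the GGAC nearest to the stop codon, in capitals, in the members with the densest GGAC and in FOS and EGR1, the members with the lowest ratios between the groups. They lie at chr19:12903607-12903626 on the plus strand in the coding sequence (JUNB), chr6:30711837-30711856 on the minus strand (IER3, after the stop codon of its unspliced form), chr14:75748230-75748249 on the plus strand in the 3′ UTR (FOS) and chr5:137803743-137803762 on the plus strand in the coding sequence (EGR1).
JUNB: gggtcaagGGACacgccttc
IER3: cctccagaGGACgcccctaa
FOS: cctagggaGGACcttatctg
EGR1: ttctcccaGGACaattgaaa

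The values are FPKM, fragments scaled to transcript length in kilobases and to the mapped fragments of the library, and were summed over the listed transcripts of a gene. The depth of the libraries is unknown, and precision was judged from the replicates. The hepatocyte and epithelial markers ALB, AFP, KRT8, KRT18 and APOA1 were listed in all libraries, and the markers PTPRC, COL1A1 and PECAM1 of other cell types were not. KIAA1429 mRNA (listed as VIRMA) had 17.95 and 10.01 FPKM with IgG, against 18.2 and 11.6 FPKM with the KIAA1429 antibody, which does not test the antibody, since that binds the protein.

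In 7 of the 10 members the libraries of the groups overlapped, and FOS, EGR1 and IER3 were lower in both KIAA1429 RIP libraries. FOSL1, JUND, FOSL2, IER3 and JUN were the abundant members, with 4-library means from 63.6 to 203 FPKM, and JUNB, FOS, EGR1, IER2 and ATF3 the scarce ones, with means from 3.26 to 12.5 FPKM. The groups were compared with limma on log2(FPKM + 1) over 11361 gene totals, and a call needed an adjusted p under 0.05 and a log2 fold change beyond 1. Of the 10 members 0 were called, as were 0% of all gene totals, and the lowest adjusted p over all genes was 0.515. Before adjustment, the limma p was under 0.05 in 1 member, FOS, against 4.59% of all gene totals. The mean was lower in KIAA1429 RIP in 8 members and higher in 2 (JUNB and ATF3). In size, the log2 ratio of group means exceeded its error from the replicates in only 2 of the 10 members. The median log2 ratio of group means was -0.19, against 0.01 over all gene totals. For FOSL2, lower by its mean, limma gave a log2 change of 0.02 (SE 0.39). The 3 members without overlap, of which FOS passed the filter at a mean of 1 FPKM only through IgG RIP, stand beside 15.2% of all gene totals that were apart in that direction. No member was apart in the other direction, where 16.6% of all gene totals were. Adjusted p-values of the members from limma were from 0.997 to 0.999. Differences of less than the replicate spread were not detectable with 2 libraries a group, and exact permutation of 2 against 2 libraries cannot give a two-sided p below 0.333.

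**Figure D1:**
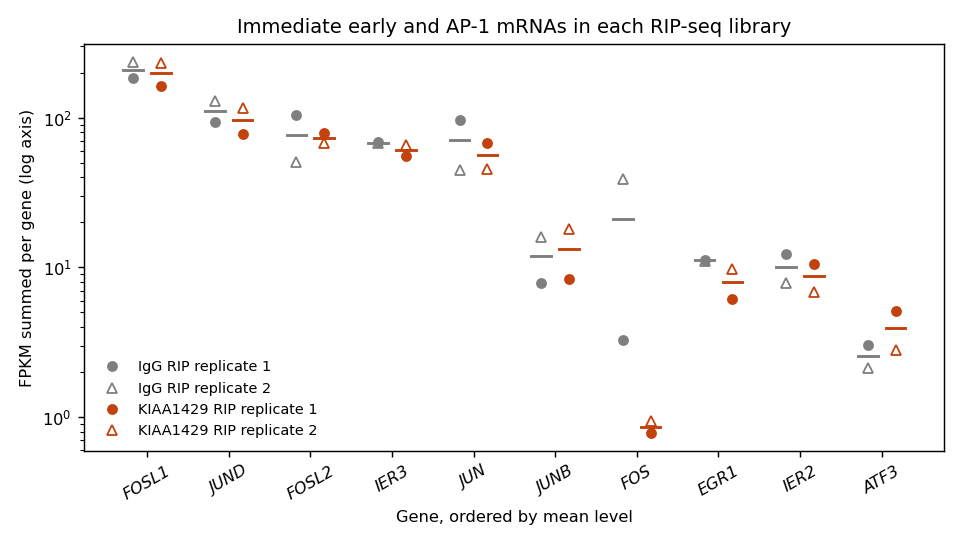
Summed FPKM (log axis) of each gene in each of the 4 libraries, with grey symbols for IgG RIP, orange symbols for KIAA1429 RIP, filled circles for replicate 1, open triangles for replicate 2 and a bar at each group mean. The groups lie close together in every gene but FOS, whose IgG RIP replicates are at 3.26 and 39.1 FPKM and whose KIAA1429 RIP replicates are at 0.79 and 0.93 FPKM.

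The order of the levels was only partly resolved. FOSL1 (162.8 to 233.8 FPKM over the 4 libraries) lay above JUND (77.5 to 128.4 FPKM) without overlap. From JUND to FOSL2, IER3 and JUN, each gene's range overlapped that of the next. JUN (lowest value 44.7 FPKM) lay above JUNB (highest value 18.2 FPKM). The ranges of JUNB, FOS, EGR1 and IER2 overlapped each with the next, and ATF3 (2.11 to 5.11 FPKM) lay below IER2 (6.89 to 12.4 FPKM). Among all listed gene totals, FOSL1 was higher than 98.6% and ATF3 higher than 32.9%.

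The JUN family supplied both an abundant and a scarce subunit. JUN (chromosome 1, 59246460 to 59249999, minus strand, ENSG00000177606), an intronless gene for the founding AP-1 subunit, had 96.7 and 44.7 FPKM in the IgG RIP libraries, while the KIAA1429 RIP libraries had 67.8 and 45.4 FPKM. Both replicates numbered 1 were high and both numbered 2 low, and the groups overlapped. The log2 ratio of group means was -0.32 with an error of 0.89, and limma gave a log2 change of -0.24 (SE, standard error, 0.43, adjusted p 0.997). JUND (chromosome 19, 18390570 to 18392432, minus strand, ENSG00000130522), the subunit that many resting cells hold steadily, had 93.0 and 128.4 FPKM with IgG, against 77.5 and 115.5 FPKM with the KIAA1429 antibody. Here the replicates numbered 2 were the high ones, again in both groups, and the log2 ratio was -0.20 with an error of 0.52. JUNB (chromosome 19, 12902310 to 12904129, plus strand, ENSG00000171223), which often tempers JUN activity, had 7.83 and 15.9 FPKM in the IgG RIP libraries, while the KIAA1429 RIP libraries had 8.31 and 18.2 FPKM. As in JUND, the replicates numbered 2 were high, and the log2 ratio was 0.16 with an error of 1.08. Together the JUN family had 197 and 189 FPKM with IgG, against 154 and 179 FPKM with the KIAA1429 antibody, a log2 ratio of -0.22 with an error of 0.16. Within the family, JUN made up 48.9% and 44.1% of the FPKM in the replicates numbered 1 of IgG RIP and KIAA1429 RIP, and 23.6% and 25.3% in those numbered 2.

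The exon of JUNB overlaps 259 bases of HOOK2 on the opposite strand, and whether strand was used in counting is not given in the sources used here. The listed HOOK2 transcript had 0.54 to 1.78 FPKM.

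FOSL1 led all members. FOSL1 (chromosome 11, 65659520 to 65667997, minus strand, ENSG00000175592) encodes FRA1, the FOS family subunit tied to invasive carcinoma cells, and had 185 and 234 FPKM in the IgG RIP libraries, while the KIAA1429 RIP libraries had 163 and 232 FPKM. The replicates numbered 2 were high in both groups, and the log2 ratio was -0.09 with an error of 0.43. FOSL2 (chromosome 2, 28615315 to 28640179, plus strand, ENSG00000075426), which encodes FRA2, had 103.5 and 50.6 FPKM with IgG, against 79.1 and 67.7 FPKM with the KIAA1429 antibody. Its log2 ratio was -0.07 with an error of 0.75, and both KIAA1429 RIP values lay between the IgG RIP values. FOS family FPKM came from FOSL1 at 63.4% to 77.2% and from FOSL2 at 15.6% to 35.5% over the 4 libraries. FOS itself gave 1.12% and 12.1% in the IgG RIP libraries, against 0.32% and 0.31% in the KIAA1429 RIP libraries.

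FOS had the widest gap between group means of the 10 members, and its size depended on 1 IgG RIP library and on partial transcripts. FOS (chromosome 14, 75745477 to 75748933, plus strand, ENSG00000170345), the classical immediate early gene, had 3.26 and 39.1 FPKM in the IgG RIP libraries, while the KIAA1429 RIP libraries had 0.79 and 0.93 FPKM. Each KIAA1429 RIP value was below each IgG RIP value, and the IgG RIP replicates differed from each other by 3.58 on the log2 scale. The log2 ratio of group means was -4.62 with an error of 2.54, a 24.6-fold lower mean in KIAA1429 RIP, and 1.5% of all gene totals were at least 4-fold lower. On the log2(FPKM + 1) scale the fold change was -2.81 (SE 0.98), with an unadjusted p of 0.0247 and an adjusted p of 0.997 from limma. The difference failed the correction. FOS passed the filter at a mean of 1 FPKM only through IgG RIP, the group where it was high. Nothing is therefore read from this p or from the 1.5%. Without IgG RIP replicate 2 the log2 ratio was -1.92.

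The forms of FOS differed between the groups. FOS-201, the full-length spliced mRNA of 2104 bases that carries the AU-rich 3′ UTR, was listed at 0 and 0.0035 FPKM in the IgG RIP libraries and at 0.79 and 0.93 FPKM in KIAA1429 RIP, so this form was higher in KIAA1429 RIP while the sum over forms was lower. With a 4-library mean of 0.43 FPKM it was not tested. The other 5 listed FOS transcripts were at 0 in both KIAA1429 RIP replicates. All 5 hold bases that are intronic in FOS-201, from 115 bases in FOS-205 to 367 in FOS-206. FOS-209, a noncoding form of 596 bases of which 300 are intronic in FOS-201, had 1.69 and 21.7 FPKM in IgG RIP. FOS-204, of 796 bases, had 1.57 and 4.96 FPKM in IgG RIP. FOS-205, FOS-206 and FOS-207 were listed at 0 in IgG RIP replicate 1 and at 4.27, 4.31 and 3.82 FPKM in IgG RIP replicate 2. Of the bases of FOS-201, the last 643, which hold the AU-rich stretch printed above, are in no other listed FOS transcript.

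A sum of FPKM gives a short transcript the same weight per FPKM as a long one. Multiplying each value by the annotated transcript length in kilobases removes the scaling to length and keeps the scaling to library depth. The result is proportional to the fragments within a library but is not a count of them, since the depth is unknown. By this measure FOS was at 2.26 and 28.3 with IgG, against 1.66 and 1.97 with the KIAA1429 antibody, a log2 ratio of -3.07. Without IgG RIP replicate 2 the ratio by this measure was -0.32.

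The IER3 total spanned 55.1 to 69.1 FPKM, while the level of its forms spread more widely. IER3 (chromosome 6, 30710976 to 30712331, minus strand, ENSG00000137331), a stress-induced regulator of cell survival, had 69.1 and 67.3 FPKM with IgG, against 55.1 and 65.7 FPKM with the KIAA1429 antibody. Both KIAA1429 RIP values lay below both IgG RIP values, yet the log2 ratio of -0.17 was smaller in size than its error of 0.18. The files list a spliced form, IER3-201, with 1 intron of 112 bases at 30711974 to 30712085, and IER3-202, which keeps this intron within a single exon. The annotated coding sequence is 468 bases long in IER3-201 and 414 bases in IER3-202. IER3-201 had 68.6 and 66.4 FPKM in the IgG RIP libraries, while the KIAA1429 RIP libraries had 16.9 and 63.8 FPKM. IER3-202 had 0.49 and 0.95 FPKM with IgG, against 38.2 and 1.92 FPKM with the KIAA1429 antibody. The unspliced form was thus 0.71% and 1.41% of the IER3 FPKM in the IgG RIP libraries, against 69.3% and 2.92% in the KIAA1429 RIP libraries. It was higher in both KIAA1429 RIP libraries, but only replicate 1 moved far. Limma gave a log2 change of 2.65 (SE 1.33, adjusted p 0.879) for IER3-202 and of -1.01 (SE 0.67, adjusted p 0.879) for IER3-201.

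The sequences that tell these IER3 forms apart are the borders of the intron, read from the minus strand of chromosome 6 of GRCh37. The first line is the start of the intron at chr6:30712071-30712100 and the second its end at chr6:30711959-30711988, with the intron in capitals. The third line joins the exons as in IER3-201, with the downstream exon in capitals.
IER3-202, intron start: ctctaccctcgagtgGTGAGTATCGCCGAA
IER3-202, intron end: TTTGTCTCCCCTTAGgtccggcgccagctg
IER3-201, joined exons: ctctaccctcgagtgGTCCGGCGCCAGCTG
The intron has the GT and AG ends of the common splice sites and holds 0 ATTTA. Outside the intron the annotated forms share their bases but for 1 at the 5′ end. The IER3 exons overlap the antisense gene IER3-AS1 by 440 bases and HCG20 by 85 bases. The listed transcripts include 0 of either gene, and without strand any reads from them cannot be told from those of IER3.

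EGR1 and IER2 were scarce. EGR1 did not overlap between the groups, while IER2 did. EGR1 (chromosome 5, 137801179 to 137805004, plus strand, ENSG00000120738), a zinc finger factor induced by serum and stress, had 11.3 and 11.1 FPKM in the IgG RIP libraries, while the KIAA1429 RIP libraries had 6.18 and 9.70 FPKM. Both KIAA1429 RIP values were lower, with a log2 ratio of -0.49 and an error of 0.46. Limma gave a log2 change of -0.47 (SE 0.40, adjusted p 0.997). IER2 (chromosome 19, 13262789 to 13265722, plus strand, ENSG00000160888), a nuclear protein induced early by growth factors, had 12.4 and 7.92 FPKM with IgG, against 10.6 and 6.89 FPKM with the KIAA1429 antibody. The replicates numbered 1 were high in both groups, and the log2 ratio was -0.21 with an error of 0.63. Its single listed transcript of 1 exon overlaps antisense noncoding genes by 946 and 662 bases.

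ATF3 was the scarcest member. ATF3 (chromosome 1, 212782012 to 212794119, plus strand, ENSG00000162772), a stress-induced bZIP factor that partners with JUN proteins, had 3.03 and 2.11 FPKM in the IgG RIP libraries, while the KIAA1429 RIP libraries had 5.11 and 2.80 FPKM. The groups overlapped, and the log2 ratio was 0.62 with an error of 0.72. In IgG RIP replicate 1 the whole value was that of ATF3-209, a noncoding form, while the other libraries listed only the coding ATF3-202. ATF3-202 had 0 and 2.11 FPKM with IgG, against 5.11 and 2.80 FPKM with the KIAA1429 antibody, so its groups did not overlap. Limma gave it a log2 change of 1.45 (SE 0.83, adjusted p 0.879).

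**Figure D2:**
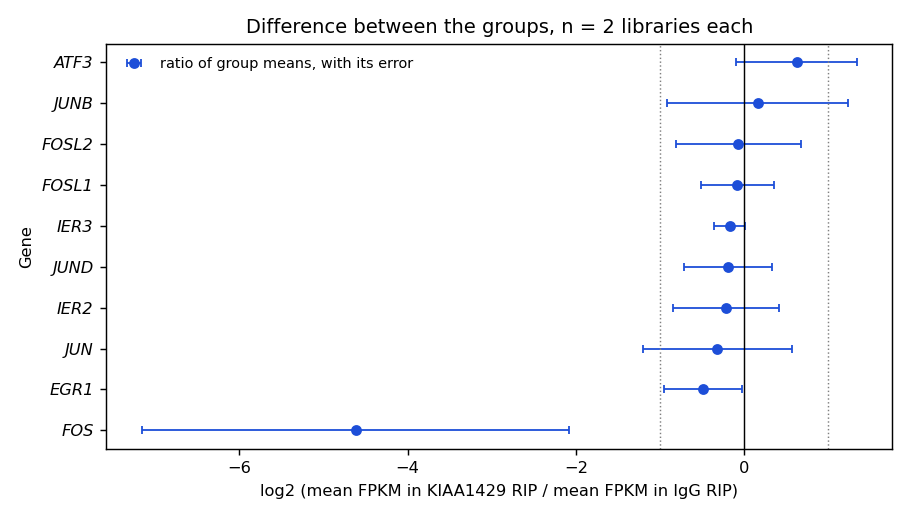
Log2 ratio of the mean FPKM in KIAA1429 RIP to that in IgG RIP for each gene (n = 2 libraries a group), with a bar of 1 error to each side from the replicate SDs of the log2 values and dotted lines at 1 and -1. The bars of 8 genes reach across 0, and those of FOS (-4.62) and EGR1 (-0.49) do not.

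Of the 24 member transcripts, 20 had a mean of at least 1 FPKM and were tested with limma among 23375 transcripts, and 4 (FOS-201, FOS-207, FOSL2-204 and ATF3-209) were not. Of the 20 tested, 0 were called, as were 0% of all transcripts, and the adjusted p-values were from 0.879 to 1.00. Before adjustment, 1 of these transcripts, FOSL1-202, passed 0.05, against 5.36% of all transcripts. Its unadjusted p from the limma fit over all transcripts was 0.0473. The groups did not overlap in 3 tested transcripts that were higher in KIAA1429 RIP (FOSL1-202, IER3-202 and ATF3-202), against 15.2% of all transcripts. They did not overlap in 5 that were lower (FOS-204, FOS-209, FOSL2-203, IER3-201 and EGR1-201), against 14.5%. Of these, FOS-204, FOS-209 and FOSL2-203 passed the filter only through IgG RIP and IER3-202 only through KIAA1429 RIP, so the filter itself kept transcripts that were high in that group, and nothing is read from the counts.

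FOSL1 and FOSL2 each had 1 or 2 dominant forms. FOSL1-201, the transcript of 4 exons with the full coding sequence, had 87.6 and 137 FPKM in the IgG RIP libraries, while the KIAA1429 RIP libraries had 84.1 and 110 FPKM. FOSL1-204, a form with a shorter coding sequence, had 83.3 and 81.5 FPKM with IgG, against 60.3 and 103 FPKM with the KIAA1429 antibody, so both forms overlapped between the groups. FOSL1-202, which has 2 exons, had 3.76 and 0.63 FPKM in the IgG RIP libraries, while the KIAA1429 RIP libraries had 7.70 and 10.8 FPKM. Both KIAA1429 RIP values of this minor form were higher, with a log2 change of 1.87 (SE 0.70, adjusted p 0.879 from limma). It was 2.03% and 0.27% of FOSL1 in the IgG RIP libraries, against 4.73% and 4.67% in the KIAA1429 RIP libraries. FOSL1-202, FOSL1-203 and FOSL1-204 have 0 bases of their own and each hold 1 splice junction that no other listed form has. FOSL2-201 made up 88.5% to 97.8% of FOSL2 in each library. FOSL2-202 was at 0.01 and 3.91 FPKM with IgG, against 0.27 and 5.80 FPKM with the KIAA1429 antibody, high in both replicates numbered 2. JUND-202, which lies within JUND-201 but for a splice junction, was listed at 0 in both replicates numbered 1 and at 4.21 and 2.19 FPKM in those numbered 2 of IgG RIP and KIAA1429 RIP.

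Other genes of the pathway were taken from 6 lists of 87 genes. Of these, 80 were listed and 77 had a mean of at least 1 FPKM. Limma called 0 of them higher and 0 lower, as were 0% of all gene totals. Before adjustment, the limma p was under 0.05 in 1 gene, against 4.59% of all gene totals. The lowest adjusted p of the tested list genes from limma was 0.997. The groups did not overlap in 6 genes that were higher in KIAA1429 RIP and 17 that were lower, against 16.6% and 15.2% of all gene totals.

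In the lists of genes that induce and restrain the immediate early response, limma called 0 genes, as it called 0% of all gene totals. Both medians were below 0, and the lists were chosen with earlier results known. Among 14 kinases and factors that induce or activate immediate early genes, the median log2 ratio was -0.23, against 0.01 over all gene totals. Of the 14, 5 were apart and lower and 0 apart and higher, against 15.2% and 16.6% of all gene totals. MKL2 and MKL1, coactivators of SRF, were the extremes at 0.85 and -0.68, and both overlapped between the groups. Among 12 feedback inhibitors the median was -0.25. Of the 12, 5 were apart and lower and 0 apart and higher, against the same 15.2% and 16.6%. ZFP36, which binds AU-rich elements, had the highest ratio at 0.00, with 31.7 and 29.3 FPKM in the IgG RIP libraries, while the KIAA1429 RIP libraries had 21.3 and 39.9 FPKM. TNFAIP3, an inhibitor of NF-kB signalling, had the lowest at -1.10 with an error of 1.30, with 22.4 and 8.53 FPKM against 4.37 and 10.05 FPKM. ZFP36 and TNFAIP3 both overlapped between the groups.

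The partners and other early mRNAs were near the median of all genes. Among 11 other bZIP partners the median was 0.03. Of the 11, 1 was apart and higher and 2 apart and lower, against 16.6% and 15.2% of all gene totals. FOSB, the remaining FOS family subunit, had the lowest ratio at -1.97, with 0.86 and 2.99 FPKM with IgG, against 0.30 and 0.68 FPKM with the KIAA1429 antibody. Its groups were apart, and as in FOS, IgG RIP replicate 2 held the highest value (adjusted p 0.997 from limma). FOSB passed the filter only through IgG RIP. ATF2, a JUN partner, had the highest ratio at 0.38 and overlapped. Among 16 other immediate and delayed early mRNAs the median was -0.07. Of the 16, 1 was apart and higher and 2 apart and lower, against the same 16.6% and 15.2%. SERTAD1 (0.74) and BTG2 (-0.56) were the extremes, and both overlapped.

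Among 13 stress mRNAs the median was 0.11. Of the 13, 4 were apart and higher and 2 apart and lower, against 16.6% and 15.2% of all gene totals. ATF4, the main factor of the integrated stress response, had the highest ratio, with 170 and 203 FPKM in the IgG RIP libraries, while the KIAA1429 RIP libraries had 230 and 274 FPKM (log2 ratio 0.44, error 0.26). SESN2, a stress-induced inhibitor of growth signalling, had the lowest, with 25.4 and 22.6 FPKM against 19.6 and 14.2 FPKM (log2 ratio -0.51, error 0.35). Neither passed the correction, each with an adjusted p of 0.997 from limma.

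Among 11 AP-1 targets the median was 0.06. Of the 11, 0 were apart and higher and 1 apart and lower, against 16.6% and 15.2% of all gene totals. The lower gene was VEGFA, the angiogenic growth factor, with 8.68 and 10.7 FPKM with IgG, against 2.79 and 3.36 FPKM with the KIAA1429 antibody. Its log2 ratio was -1.65 with an error of 0.29, and limma gave an unadjusted p of 0.0146 and an adjusted p of 0.997. TIMP1, an inhibitor of matrix proteases, had the highest ratio of the list at 0.18 and overlapped.

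**Figure D3:**
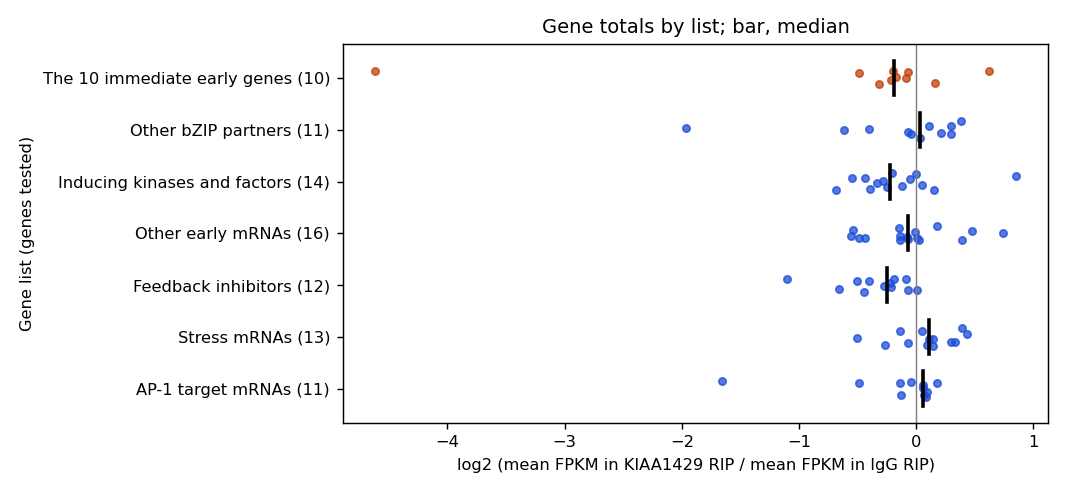
Log2 ratio of the mean FPKM in KIAA1429 RIP to that in IgG RIP for each tested gene of 7 lists, with a black bar at each list's median and the number of genes beside its name. The medians lie between -0.25 and 0.11, and FOS (-4.62), FOSB (-1.97) and VEGFA (-1.65) lie farthest out.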

How the data were processed

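According to the paper's methods, the authors purified poly(A) RNA from the precipitates, made libraries with random primers, sequenced them on an Illumina HiSeq instrument and aligned the reads to GRCh37 with HISAT2, while the submitters' processing notes name Bowtie2 2.1.0. The authors deposited FPKM values per transcript, 1 file for each library, and the tool that estimated them is not given in the sources used here. Depth is unknown.

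FPKM values were read as deposited and summed per gene name. Features with a mean of at least 1 FPKM (11361 gene totals, 23375 transcripts) were taken as log2(FPKM + 1), which understates changes of low genes, and tested with limma 3.58.1 in R 4.3.3 (lmFit, then eBayes with a mean-variance trend), with two-sided p-values adjusted by Benjamini and Hochberg's method across every feature tested. The study's own enrichment test was one for read counts, which FPKM values do not allow. The paper reports transcripts enriched in KIAA1429 RIP. Its test was not rerun here, so the absence of limma calls is not set against that result. The fit was tested on simulated data. Log2 ratios of group means were computed in Python 3.11.15 with pandas 2.3.3, and their error is the root of the summed variances of the log2 values in the groups. A listed transcript was matched to GENCODE v44 on GRCh37 by its identifier (33938 of 34975, and all 24 member transcripts). Of the member transcripts, 16 started and ended within 5 bases of the annotation. Gene coordinates are those listed in the files, lengths and sequences those of the annotation.

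Members and lists were chosen with earlier results of these data known. Genes named were the 10 members with their transcripts, KIAA1429, and in each list any gene past the threshold and those with the highest and the lowest log2 ratio. CXCL8 and its older symbol IL8 were counted once. Alternatives were pseudocounts of 0.1 and 0.01, no filter and a filter at 5 FPKM, median scaling (factors 0.93 to 1.07), quantile normalization, the replicate block, no variance trend, the most abundant or only the protein_coding transcripts, and each library left out.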

Additional observations from a re-analysis of the deposited data

How the results depend on the processing

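The number of called members, gene totals and transcripts alike, was 0 under each of the 12 alternative fits. Over all gene totals, the replicate block gave 13 calls against 0, none of them a member. The deviations of same-numbered libraries correlated at 0.19 over gene totals and 0.03 over transcripts, and with 2 pairs and no label that ties them the numbers were not taken as pairs. With the replicate block the adjusted p of FOS was 0.133 and those of the other members were from 0.857 to 0.995. The median log2 ratio of the members, -0.19, was below 0 under all 10 alternatives, among them FPKM times transcript length (-0.16) and the 9 members other than FOS (-0.17), both chosen after seeing the data. It was -0.34 without IgG RIP replicate 2, -0.33 without KIAA1429 RIP replicate 2 and -0.12 without KIAA1429 RIP replicate 1. These alternatives reuse the same 4 libraries and are not separate support. The median over all gene totals moved too. Its limma log2 fold change was -0.08 without IgG RIP replicate 2 and 0.09 without IgG RIP replicate 1, against -0.34 and -0.21 for the members. Quantile normalization turned the limma log2 fold change of FOSL2 from 0.02 to -0.10. With each library left out in turn, limma log2 fold changes ranged from -0.79 to 0.31 for JUN, -0.39 to 0.65 for JUNB, -0.49 to 0.0798 for JUND, -0.35 to 0.16 for FOSL1, -0.49 to 0.52 for FOSL2 and -0.48 to 0.10 for IER2. The direction turned without IgG RIP replicate 1 or KIAA1429 RIP replicate 2 in JUN, JUNB and IER2, and without IgG RIP replicate 2 or KIAA1429 RIP replicate 1 in JUND, FOSL1 and FOSL2. FOS, EGR1, IER3 and ATF3 kept their direction, but their size also moved by over 1.5 times. FOS ranged from -4.43 without IgG RIP replicate 1 to -1.20 without IgG RIP replicate 2. With KIAA1429 RIP replicate 2 or 1 left out, EGR1 was at -0.76 or -0.19, IER3 at -0.30 or -0.05 and ATF3 at 0.79 or 0.10, and ATF3 was at 0.26 without IgG RIP replicate 2. The coding transcripts alone gave ATF3 a log2 ratio of 1.90 and left out the noncoding form, which is the whole value of IgG RIP replicate 1. The most abundant transcript gave IER3 -0.74. For FOS the most abundant transcript gave no ratio, since FOS-209 was at 0 in KIAA1429 RIP. The fits rest on 2 libraries a group, and the depth behind each FPKM is unknown.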
